A study of Mus musculus with 6 samples.

Results

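NRF2 is a transcription factor that switches on genes against oxidants and electrophiles, and the genes described here are its own gene Nfe2l2, those of its regulators KEAP1 and BACH1, and 7 classical targets. The 10 genes were taken by name from the gene expression table of cultured mouse spermatogonial stem cells, and all 10 were found among its 34745 genes. Spermatogonial stem cells are the germ cells that sustain sperm production. The table holds 6 RNA sequencing libraries, 3 from untreated cultures and 3 from cultures kept with bisphenol A (BPA), a plastics monomer, at 100 µM for about 4 days. All cultures, at passages 15 to 20, came from DBA/2J X c57BL/6J mice at postnatal day 6. The controls are titled untreated and no vehicle is named for them, so a solvent effect and a BPA effect cannot be told apart.

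In unstressed cells the adaptor KEAP1 holds NRF2 and presents it to the CUL3 ubiquitin ligase, so that NRF2 is made and destroyed continuously. Oxidants and electrophiles modify cysteines of KEAP1, NRF2 then accumulates, pairs with a small MAF protein and binds antioxidant response elements near its targets. BACH1 is a haem-binding repressor that occupies related elements with the same MAF partners. Control of NRF2 acts largely on the protein, which RNA sequencing does not measure.

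The libraries held 13453280 to 22286517 counts. BPA replicate 2 stood apart: the chi-square per degree of freedom between replicates was 64.2 and 84.5 for its pairs and 18.9 to 25.4 for the other pairs. Whether replicates came from different cultures or animals is not labelled, and p-values reflect the spread among these libraries, which may be technical. Of 12 markers of spermatogonial stem cells all were counted, and their summed level was 1856 to 1896 CPM (counts scaled to library size) in untreated and 1605 to 2069 CPM in BPA libraries. Single markers of that list did change: Uchl1 and Id4 fell, with log2 fold changes of -0.82 (SE 0.15) and -1.004 (SE 0.28), and Sall4 rose, at 0.82 (SE 0.23; edgeR adjusted p = 0.00445, 0.0401 and 0.0379). The 12 fibroblast feeder markers summed to 161.8 to 198.6 and 121.1 to 201.0 CPM. The 8 Sertoli cell markers summed to 44.7 to 57.7 CPM in untreated and 118.2 to 153.8 CPM in BPA libraries, most of it Clu in every library. Of those 8, Fshr and Rhox5 were at 0 in every library, Clu rose by 1.34 (SE 0.21) on the log2 scale and Sox9 by 1.505 (SE 0.31; edgeR adjusted p = 0.00199 and 0.0104). The 6 macrophage markers summed to 56.5 to 60.6 and 30.8 to 43.3 CPM, most of it Cd68, and the 6 Leydig cell markers to at most 1.31 CPM, with 4 at 0 everywhere. The part of these markers in the results below was not tested. In such bulk samples fewer cells of a type and less RNA per cell cannot be told apart.

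The comparison asked how transcript levels in the BPA cultures differed from those of the untreated ones. Of the 10 genes, 6 were lower under BPA and 0 higher in edgeR's quasi-likelihood test (adjusted p under 0.05, Benjamini-Hochberg over 13287 genes). At an unadjusted p under 0.05, 7 were lower and 0 higher, a rule for which the share of all genes was not computed. DESeq2 called 2166 of all 13287 genes, 1228 of them lower, and 6 of the 10, all lower. The 6 were targets: the reductase genes Cbr3, Nqo1 and Cbr1, the growth inhibitor gene Osgin1, the sulfiredoxin gene Srxn1 and the thioredoxin reductase gene Txnrd1. The falls ranged from 9.82-fold for Cbr3 to 1.66-fold for Txnrd1. Of all genes tested 6.28% were lower and 4.37% higher at the adjusted edgeR threshold, 10.6% in all. The median log2 fold change was -0.80 over the 10 genes and 0.10 over all genes. The seventh target, the haem oxygenase gene Hmox1, and the genes of the 3 regulators did not pass the threshold. For 7 of the 10 genes every library of one group lay beyond every library of the other; this held for 31.3% of all genes. Leaving out BPA replicate 2 left 6 lower, leaving out untreated replicates 1, 2 and 3 left 5, 5 and 4, and leaving out BPA replicates 1 and 3 left 4 and 5; the number of all genes called moved far more, from 444 to 2807. CPM here and below are scaled with TMM, the trimmed mean of M-values. Log2 fold changes compare BPA with untreated and carry a standard error (SE).

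**Figure D1:**
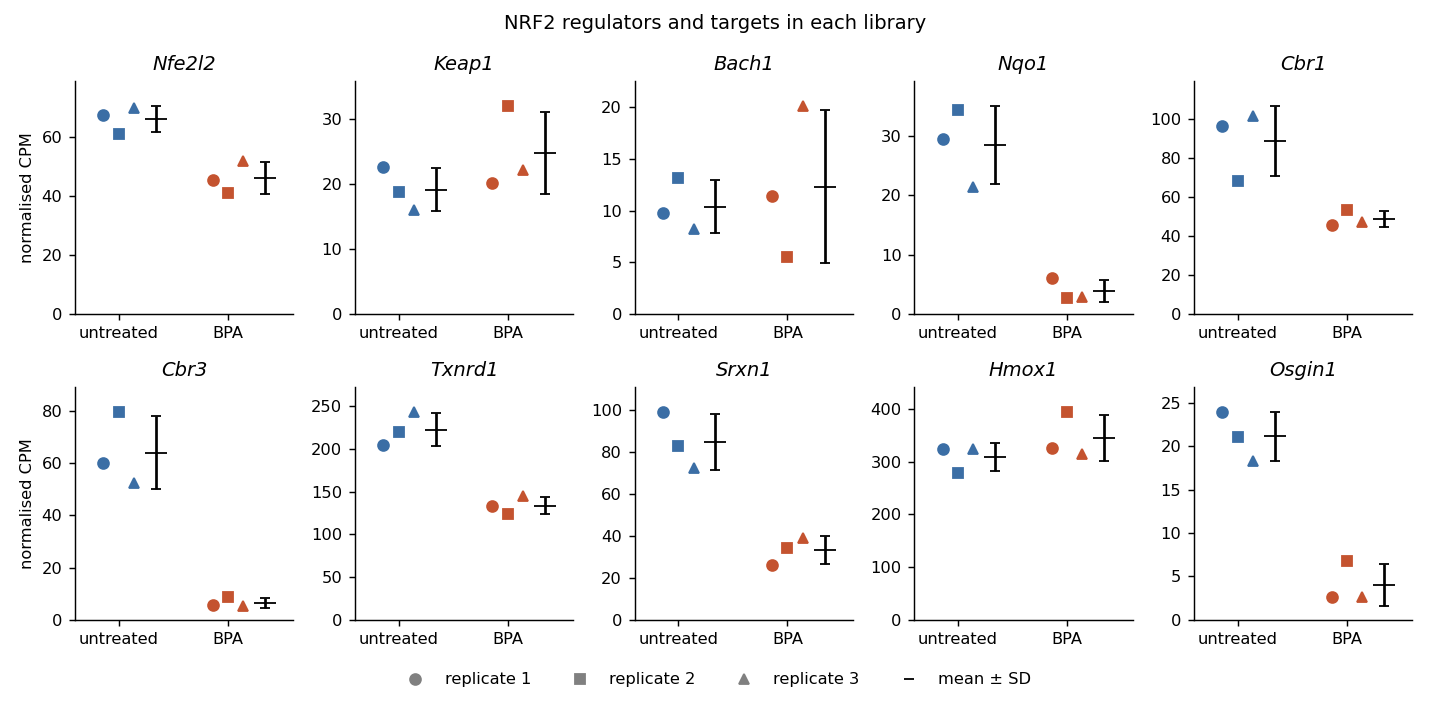
Normalised CPM (vertical axes, each from 0) of the 10 genes in the 3 untreated (blue) and 3 BPA libraries (orange), with mean and SD in black. The groups are apart for Nfe2l2, Nqo1, Cbr1, Cbr3, Txnrd1, Srxn1 and Osgin1 and overlap for Keap1, Bach1 and Hmox1.

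Nfe2l2, which encodes NRF2 (ENSMUSG00000015839, chromosome 2, 75675513 to 75704641, mm10), was at 67.2, 61.1 and 69.7 CPM in the untreated libraries and at 45.4, 40.9 and 51.8 CPM in the BPA libraries. Every BPA library was below every untreated one, with means of 66.0 ± 4.43 and 46.0 ± 5.50 CPM (SD, n = 3). This 1.43-fold difference missed the threshold over all genes (log2 fold change -0.52, SE 0.20, unadjusted p = 0.0222, edgeR adjusted p = 0.122). With every library corrected for GC and for length it passed, at -0.74 (edgeR adjusted p = 0.00687).

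Keap1, the gene of the adaptor that targets NRF2 for destruction (ENSMUSG00000003308, chromosome 9, 21229730 to 21239332), was at 22.6, 18.8 and 15.97 CPM untreated and at 20.1, 32.1 and 22.2 CPM under BPA. The groups overlapped and BPA replicate 2 was the highest library (log2 fold change 0.37, SE 0.30, edgeR adjusted p = 0.471). Without BPA replicate 2 the value was 0.15. Of the exon length of Keap1 10.9% overlaps the annotated gene Gm16754, and without strand information reads from that part cannot be assigned to either.

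Bach1, the gene of the haem-regulated repressor (ENSMUSG00000025612, chromosome 16, 87698945 to 87733346), was at 9.75, 13.2 and 8.20 CPM untreated and at 11.4, 5.45 and 20.1 CPM under BPA. The BPA libraries thus held both the lowest and the highest value of the 6. Its log2 fold change of 0.25 (SE 0.47, edgeR adjusted p = 0.792) turned to -0.30 without BPA replicate 3 and to -0.12 after the GC and length correction, so no direction can be given.

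The promoters of the targets are shown next because the 6 genes fell together. RefSeq windows (GRCm38.p6) from 250 bases before to 50 bases after a transcript start were found for 9 of the 10 genes, 11 windows in all; Hmox1 was not matched. Both strands were searched for the core of the antioxidant response element, TGACNNNGC, and for the element bound by NRF2 or BACH1 with small MAF proteins, TGANTCAGC. A TGACTCAGC counts as both, and none was in the 11 windows. The first was in 3 of the 11 windows and in 12.4% of all 32851 windows, the second in 2 of 11 and in 1.19%. The TGANTCAGC matches were in Srxn1, starting 45 bases before the transcript start, and in Osgin1, on the opposite strand, starting 99 bases before it. Both read TGAGTCAGC. The Osgin1 window begins at 119436897, inside the annotated gene (119434124 to 119446256), so its transcript start is an internal one. The TGACNNNGC matches were in Nfe2l2 (TGACTCCGC, 240 bases before the start), in a window of Txnrd1 (TGACAAAGC on the opposite strand, 92 bases before the start) and in Srxn1 (TGACCTAGC on the opposite strand, 29 bases after the start). Nqo1 and Cbr3, the genes with the largest falls, are shown beside them and held neither string in these windows, which says nothing of elements farther away. The stretches run 5′ to 3′ on the gene's strand, from 250 to 31 bases before the transcript start (Txnrd1 from 119 to 61), with matches in capitals. They are Srxn1 chr2:152105274-152105493 (plus strand), Osgin1 chr8:119436897-119437116 (plus), Txnrd1 chr10:82859087-82859145 (plus), Nqo1 chr8:107403236-107403455 (minus) and Cbr3 chr16:93682969-93683188 (plus).
Srxn1: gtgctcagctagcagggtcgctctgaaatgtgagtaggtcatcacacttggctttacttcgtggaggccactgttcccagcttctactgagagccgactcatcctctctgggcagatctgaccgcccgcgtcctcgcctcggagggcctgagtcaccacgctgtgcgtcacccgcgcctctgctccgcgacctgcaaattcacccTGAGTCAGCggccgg
Osgin1: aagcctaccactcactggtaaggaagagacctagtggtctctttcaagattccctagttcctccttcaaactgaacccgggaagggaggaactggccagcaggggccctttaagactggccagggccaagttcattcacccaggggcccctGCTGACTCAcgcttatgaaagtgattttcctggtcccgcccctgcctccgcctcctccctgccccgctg
Txnrd1: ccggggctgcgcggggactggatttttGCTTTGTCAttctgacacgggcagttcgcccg
Nqo1: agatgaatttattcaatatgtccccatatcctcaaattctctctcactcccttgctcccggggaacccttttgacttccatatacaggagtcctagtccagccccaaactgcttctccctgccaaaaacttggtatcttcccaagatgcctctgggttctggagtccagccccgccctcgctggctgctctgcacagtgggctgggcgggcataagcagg
Cbr3: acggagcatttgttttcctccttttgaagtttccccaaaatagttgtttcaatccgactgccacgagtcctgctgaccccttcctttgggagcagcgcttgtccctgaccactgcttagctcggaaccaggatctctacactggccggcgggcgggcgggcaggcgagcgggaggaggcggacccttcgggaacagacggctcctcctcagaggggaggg

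Nqo1 encodes NAD(P)H quinone dehydrogenase 1, which reduces quinones by transfer of 2 electrons and is the usual marker of NRF2 activity (ENSMUSG00000003849, chromosome 8, 107388225 to 107403206). It was at 29.6, 34.5 and 21.4 CPM in untreated and at 5.96, 2.63 and 2.81 CPM in BPA libraries. The lowest untreated library lay 15.5 CPM above the highest BPA library. The mean fell 7.50-fold, from 28.5 ± 6.63 to 3.80 ± 1.87 CPM (SD, n = 3; log2 fold change -2.92, SE 0.41, edgeR adjusted p = 0.00103). The BPA values rest on 91, 53 and 69 reads.

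Cbr3 and Cbr1 encode carbonyl reductases, enzymes that reduce aldehydes, ketones and quinones with NADPH. They are neighbours on chromosome 16, Cbr1 at 93607837 to 93610505 (ENSMUSG00000051483) and Cbr3 at 93683215 to 93690990 (ENSMUSG00000022947), 72.7 kb apart. Cbr3 was at 60.0, 79.4 and 52.3 CPM untreated and at 5.50, 8.72 and 5.30 CPM under BPA. Every untreated library was at least 43.5 CPM above every BPA library, and the log2 fold change was -3.29 (SE 0.30, edgeR adjusted p = 5.82e-05). Cbr1 was at 96.9, 68.5 and 102 CPM untreated and at 45.8, 53.3 and 47.1 CPM under BPA. Its groups were also apart, by 15.2 CPM, but its fall was 1.83-fold against the 9.82-fold of Cbr3 (log2 fold change -0.87, SE 0.21, edgeR adjusted p = 0.0206). Cbr1 missed the threshold when untreated replicate 1, untreated replicate 3, BPA replicate 1 or BPA replicate 3 was left out (highest edgeR adjusted p = 0.116). Setd4 and Dopey2, the tested genes on either side of the pair, were at -0.39 (SE 0.41) and -0.44 (SE 0.33) and did not pass (edgeR adjusted p = 0.6 and 0.44).

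The coding sequences of Cbr1 and Cbr3 are alike, so reads could be shared between them. Both span 834 bases, and 77.9% of 832 aligned bases were identical in GENCODE vM21. The stretch around the longest identical run, coding bases 121 to 220 of both genes, is shown with the 11 differing bases in capitals.
Cbr1: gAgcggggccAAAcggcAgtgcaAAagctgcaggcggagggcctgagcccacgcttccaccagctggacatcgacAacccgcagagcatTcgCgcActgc
Cbr3: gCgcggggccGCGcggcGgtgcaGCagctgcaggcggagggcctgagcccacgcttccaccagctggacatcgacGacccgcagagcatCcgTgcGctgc
The identical run in its middle spans 50 bases. Of 1121 stretches of 50 bases in the Cbr3 transcript 1 also occurs in the Cbr1 transcript. With the counts of both genes summed as 1 gene the log2 fold change was -1.47 (SE 0.17, edgeR adjusted p = 0.000296). Both genes fell, so their sum had to fall, and it does not show to which gene shared reads were counted. The part of shared reads was not tested.

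Txnrd1 and Srxn1 act in thiol redox control. Thioredoxin reductase 1, a selenoprotein, keeps cytosolic thioredoxin reduced, and sulfiredoxin returns overoxidised peroxiredoxins to their active form. Txnrd1 (ENSMUSG00000020250, chromosome 10, 82859206 to 82897724) was at 204, 220 and 243 CPM untreated and at 133, 124 and 144 CPM under BPA. The groups were 60.0 CPM apart and each group was tight, with coefficients of variation of 8.75% and 7.76%. The fall was 1.66-fold (log2 fold change -0.73, SE 0.15, edgeR adjusted p = 0.0107), and the threshold was missed when untreated replicate 2, untreated replicate 3 or BPA replicate 1 was left out (highest edgeR adjusted p = 0.0597). Srxn1 (ENSMUSG00000032802, chromosome 2, 152105516 to 152111376) was at 99.1, 83.0 and 72.6 CPM untreated and at 25.9, 34.2 and 39.3 CPM under BPA. All BPA libraries were below all untreated ones, and the mean fell 2.56-fold (log2 fold change -1.36, SE 0.23, edgeR adjusted p = 0.00296).

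Osgin1 encodes oxidative stress induced growth inhibitor 1 (ENSMUSG00000074063, chromosome 8, 119434124 to 119446256). It was at 23.9, 21.1 and 18.4 CPM untreated and at 2.62, 6.79 and 2.65 CPM under BPA. BPA replicate 2 was the highest of the treated libraries and still 11.6 CPM below the lowest untreated one. The mean fell 5.26-fold (log2 fold change -2.39, SE 0.44, edgeR adjusted p = 0.00575), and the value was -2.999 without BPA replicate 2. The BPA counts were 40, 137 and 65 reads.

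Hmox1, whose product opens the haem ring to release iron, carbon monoxide and biliverdin (ENSMUSG00000005413, chromosome 8, 75093591 to 75100596), is a target of NRF2 and the best known target of BACH1. It was at 325, 278 and 324 CPM untreated and at 325, 394 and 315 CPM under BPA. The groups overlapped, with the highest value in BPA replicate 2, and the means were 309 ± 27.0 and 345 ± 42.9 CPM (SD, n = 3). The log2 fold change was 0.16 (SE 0.15, edgeR adjusted p = 0.554) and lay between 0.05 and 0.23 without each library in turn. After the GC and length correction it was 0.304 (edgeR adjusted p = 0.0707), and 0.309 with the replicate block added (edgeR adjusted p = 0.0608).

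Cbr3, Nqo1, Srxn1 and Osgin1 passed in all 6 fits that each left out 1 library, with the highest edgeR adjusted p at 0.00137, 0.0125, 0.0376 and 0.0455. Their log2 fold changes then ranged from -3.56 to -3.10, -3.38 to -2.71, -1.49 to -1.20 and -2.999 to -2.15. The plot of fold changes shows the order of the genes and how far each value moved when 1 library was left out.

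**Figure D2:**
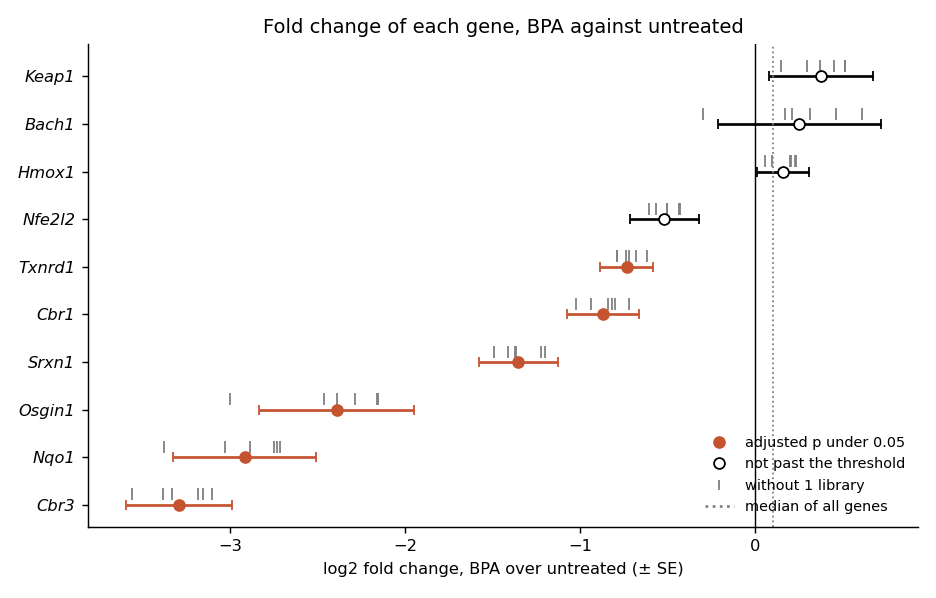
Log2 fold change of each gene, BPA over untreated (horizontal axis), with its SE; filled orange points passed an adjusted p of 0.05, open points did not, grey ticks are the values without 1 library, and the dotted line is the median of all genes at 0.10. Cbr3 lies lowest at -3.29 and Keap1 highest at 0.37.

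Levels can be compared between genes only per gene length. With the lengths the authors used, Hmox1 stood first in untreated cultures at 111.6 CPM per kilobase (range 100.3 to 117.4). Cbr1 (72.0), Txnrd1 (65.1) and Cbr3 (54.6) followed, and neighbours in that order did not differ beyond their spread. Below them came Srxn1 (23.4), Nqo1 (18.4) and Nfe2l2 (16.8), whose neighbouring ranges also overlapped, and then Osgin1 (3.79), Keap1 (2.44) and Bach1 (1.49), each below the range of the gene before. In BPA cultures Hmox1 was again first at 124.6 CPM per kilobase, before Cbr1 (39.4) and Txnrd1 (39.1), whose ranges overlapped. Nfe2l2 (11.7) and Srxn1 (9.12) were next with overlapping ranges. Cbr3 (5.56) stood sixth, its range also overlapping that of Srxn1, and Keap1 (3.16), Nqo1 (2.45), Bach1 (1.77) and Osgin1 (0.72) followed, neighbours among these 4 again overlapping. The level of Keap1 was thus below that of Nqo1 in untreated libraries, where their ranges were 2.04 to 2.88 and 13.8 to 22.2. Under BPA their ranges overlapped with the authors' lengths. The lengths matter for this order: with the exon length in GENCODE vM21, Cbr3 came second in untreated cultures at 51.0 CPM per kilobase, before Cbr1 at 34.9, and seventh under BPA at 5.19, after Keap1 at 5.28. With that length Keap1 lay above Nqo1 under BPA, with ranges of 4.28 to 6.83 and 1.69 to 3.84. The range of Srxn1 was then also apart from that of Cbr3 under BPA and from that of Nqo1 in untreated cultures.

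**Figure D3:**
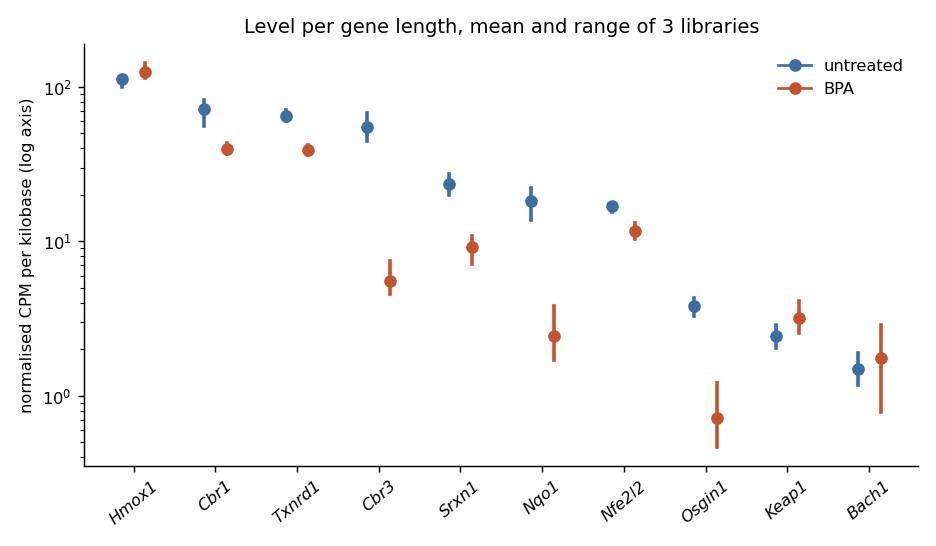
Normalised CPM per kilobase on a log axis, as mean (point) and range of the 3 libraries (line) for untreated (blue) and BPA cultures (orange), ordered by the untreated mean. Hmox1 is first in both groups, while Cbr3 goes from 54.6 to 5.56 and Nqo1 from 18.4 to 2.45.

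Over the 6 libraries, the other targets that fell had Pearson correlations with Nqo1 (log2 CPM) of 0.81 (Cbr1), 0.94 (Cbr3), 0.91 (Txnrd1), 0.88 (Srxn1) and 0.86 (Osgin1), and Nfe2l2 of 0.86. Keap1 and Hmox1 were at -0.64 and -0.63 and Bach1 at 0.01. These describe 6 points in 2 groups and mostly carry the difference between the groups. Among 7711 genes with a mean of at least 10 CPM, the 3 most like Nqo1 were S100a10 (0.9998), Polr2d (0.996) and Mydgf (0.9957). S100a10 was at 149.4, 162.1 and 131.4 CPM untreated and at 74.6, 50.8 and 52.8 CPM under BPA. The 3 most like Nfe2l2 were Ifi35 (0.9963), BC005537 (0.9938) and Nsfl1c (0.9879).

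The rest of the pathway was read from 5 lists with 97 different genes, 10 of them in more than 1 list; their counts stand beside the 4.37% of all genes that were higher and the 6.28% that were lower, 10.6% in all. In the list of NRF2 control genes, 18 of 19 were in the table and tested; 2 rose, 1 fell and the median log2 fold change was 0.18. Nfe2l1, the gene of the NRF2 relative NRF1, which governs proteasome genes, rose from 200, 203 and 214 to 309.3, 441.5 and 392.4 CPM (0.89, SE 0.16, edgeR adjusted p = 0.00457). All BPA libraries were above all untreated ones. Rbx1, a subunit of the CUL3 ligase, fell by 0.71 on the log2 scale (SE 0.17) and Usp11, a deubiquitinase, rose by 0.75 (SE 0.20; edgeR adjusted p = 0.0211 and 0.0325). The number changed was 1 when untreated replicate 1, untreated replicate 2 or BPA replicate 1 was left out. Rbx1 was also lost without BPA replicate 3 and Usp11 also without untreated replicate 3. After the GC and length correction 2 were higher and 0 lower, so that Rbx1 was lost there too; with the replicate block added 1 was lower.

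Of 39 other NRF2 targets 37 were tested; 11 fell and 2 rose, with a median of -0.37. Akr1b3, an aldose reductase gene, fell from 986, 838 and 902 to 365, 361 and 319 CPM (-1.38, SE 0.13, edgeR adjusted p = 8.55e-05). Pgd, of the pentose phosphate pathway that supplies NADPH, was at -1.09 (SE 0.14), Gsta4, a gene of glutathione transfer, at -1.47 (SE 0.21) and the ferritin light chain gene Ftl1 at -0.74 (SE 0.13; edgeR adjusted p = 0.000554, 0.00103 and 0.0034). Those 4 passed without each library in turn, although Ftl1 belongs to a family with many near-identical copies and its counts are uncertain. The 2 that rose, named after their values were seen, were Blvra, whose product reduces biliverdin to bilirubin (2.06, SE 0.37, edgeR adjusted p = 0.00506), and the cystine transporter gene Slc7a11 (3.98, SE 1.02, edgeR adjusted p = 0.0278). Slc7a11 was at 0.49, 0.63 and 0.0 CPM untreated and at 6.35, 3.82 and 7.91 CPM under BPA, so the size of its fold change rests on an untreated group near 0. It was lost without untreated replicate 1, BPA replicate 1 or BPA replicate 3. Gclc and Gclm, the subunit genes of the enzyme that begins glutathione synthesis and textbook NRF2 targets, were at 0.14 (SE 0.16) and -0.51 (SE 0.21) and did not pass (edgeR adjusted p = 0.659 and 0.154; named after their values were seen). The number changed was 5 without untreated replicate 1 and 7 without untreated replicate 3 or BPA replicate 3. Of all genes 444, 833 and 710 passed in those fits, against 1415 with all 6 libraries.

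Of 14 carbonyl and quinone reductases 13 were tested; 2 fell, 0 rose and the median was -0.27. At an unadjusted p under 0.05, 4 were lower and 3 higher, and the share of all genes by that rule was not computed. DESeq2 called 3, all lower, beside 2166 of all 13287 genes. After the GC and length correction the median changed sign, to 0.056 (0.061 with the replicate block), with 2 lower and 1 higher. Without untreated replicate 2 or BPA replicate 2, 1 was also higher. No direction can be given for this list. Akr1b8, an aldo-keto reductase gene, fell from 151.5, 129.6 and 147.5 to 58.3, 49.6 and 49.0 CPM (-1.45, SE 0.18, edgeR adjusted p = 0.000407). Akr1b8 and Akr1b3 have close relatives with which reads can be shared. Aifm2, whose product reduces coenzyme Q, fell by 0.92 on the log2 scale (SE 0.25, edgeR adjusted p = 0.0332) and was lost in each fit that left out a library except BPA replicate 2. The number changed was 4 without BPA replicate 2 and 1 when any of untreated replicates 1 and 3 and BPA replicates 1 and 3 was left out. Of all genes 2807 passed without BPA replicate 2, against 1415 with all 6 libraries. In the fits with 1 changed, 444, 833, 583 and 710 of all genes passed.

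Among 16 genes of the thioredoxin and sulfiredoxin system, all tested, 4 fell and 2 rose (median -0.32). Sesn2, a stress-induced sestrin, rose from 63.6, 81.2 and 86.8 to 519, 705 and 418 CPM (2.83, SE 0.21, edgeR adjusted p = 1.06e-05). Txnip, whose product binds thioredoxin and inhibits it, rose from 190, 217 and 210 to 593, 515 and 591 CPM (1.46, SE 0.14, edgeR adjusted p = 7.57e-05). Both passed without each library in turn. The peroxiredoxin genes Prdx4 and Prdx2 fell, to -0.81 (SE 0.15) and -0.60 (SE 0.14; edgeR adjusted p = 0.00615 and 0.0204). Prdx4 was lost without untreated replicate 1 and Prdx2 without each library except BPA replicate 2. The other reductases Txnrd2 and Txnrd3 were at -0.34 (SE 0.26) and -0.30 (SE 0.20) and did not pass (edgeR adjusted p = 0.457 and 0.391; named after their values were seen). The number changed was 2, 3 and 3 without untreated replicates 1, 2 and 3, and 3 without BPA replicate 3. Of all genes 444, 527, 833 and 710 passed in those fits, against 1415 with all 6 libraries.

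Of 19 genes of haem and iron handling 18 were tested; 3 fell and 1 rose, with a median of -0.20, against 10.6% of all genes changed in either direction. The median was -0.092 without untreated replicate 1 and -0.325 without BPA replicate 2. Alas1, the first enzyme of haem synthesis, fell from 275, 262 and 257 to 104, 150 and 115 CPM (-1.10, SE 0.17, edgeR adjusted p = 0.00174). All BPA libraries were below all untreated ones, and Alas1 passed without each library in turn. Blvra and Ftl1, given above, were also among those that changed. Hmox2, the constitutive haem oxygenase gene, was at -0.26 (SE 0.15, edgeR adjusted p = 0.293; named after its values were seen). The number changed was 8 without BPA replicate 2. In that fit 2807 of all 13708 genes tested passed, against 1415 of 13287 with all 6 libraries.

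**Figure D4:**
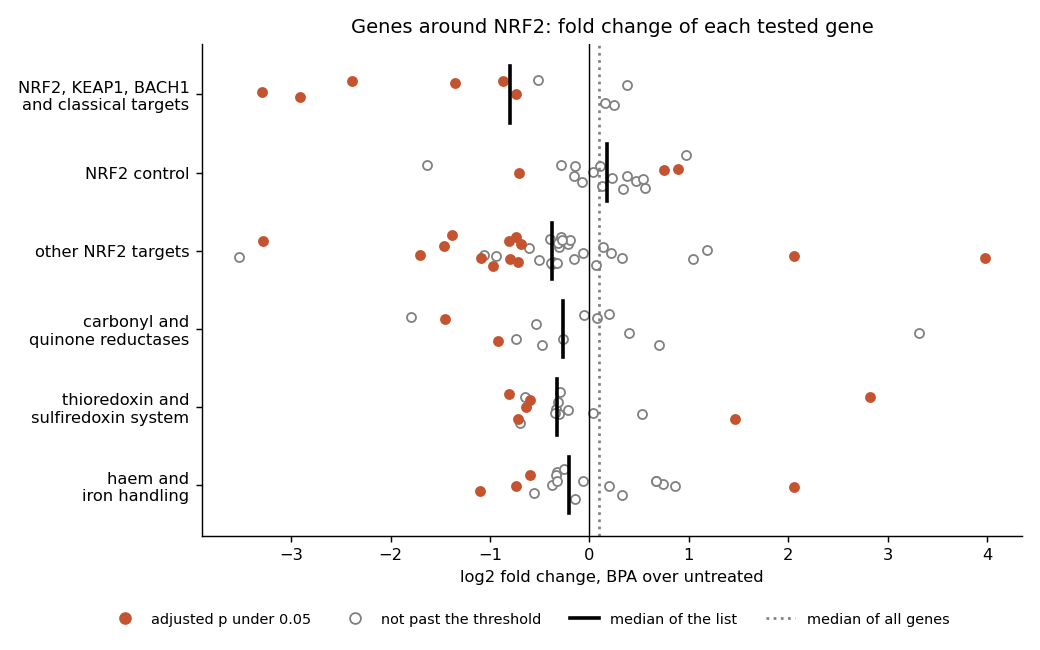
Log2 fold change, BPA over untreated (horizontal axis), of each tested gene in the set of 10 and in the 5 lists; orange points passed an adjusted p of 0.05, black bars are list medians and the dotted line is the median of all genes at 0.10. The median of the 10 genes is -0.80 and those of the lists run from -0.37 to 0.18.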

How the data were processed

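Total RNA of 3 untreated and 3 BPA samples (miRNeasy) went into TruSeq RNA v2 libraries, a kit without strand marks, per the labels' protocols. The submitters' processing notes name TopHat2 2.0.9, HTSeq and mm10; for versions and settings beyond these, the sources used here give nothing. The authors deposited raw gene counts and FPKM values per sample for 34745 genes. The deposited FPKM values served only to recover gene lengths (largest relative deviation 9.2e-04); all tests used the deposited counts. Columns were matched to samples by the code in the title.

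After filterByExpr and TMM scaling, counts were tested with the quasi-likelihood test of edgeR 4.0.16 (R 4.3.3), BPA against untreated without a block, Benjamini-Hochberg adjusted over 13287 genes with a threshold of 0.05. Alternatives were DESeq2 1.42.0, limma-voom 3.58.1, other scalings and filters, an FDR of 0.01, a replicate block, leaving out each library, and a lowess correction (span 0.3) for GC content and gene length. On simulated counts with 200 genes changed, 12763 genes passed the filter and were tested. There edgeR made 88 calls, 5 of them false, and found 31.6% of the 2-fold and 54.6% of the 4-fold changes among tested genes. DESeq2 made 125 calls, 25 of them false, and limma-voom 80, 5 of them false. Every pair of replicates differed beyond sampling noise. The 10 genes, the lists and the motifs were chosen with earlier results of these data known. From each list the rule named up to 4 called genes with the smallest adjusted p, and for Nqo1 and Nfe2l2 the 3 genes with the highest correlation. Dpp3, in a list, was not matched and is not reported here. Figures were drawn with matplotlib 3.10.9. The values of 1 gene on a pathway list are not reported here.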

Additional observations from a re-analysis of the deposited data

How the results depend on the processing

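The falls of Cbr3, Nqo1, Srxn1 and Osgin1 kept their direction and their side of the threshold under every alternative run. Cbr1 and Txnrd1 missed an FDR of 0.01 (-0.87 and -0.735) and some fits without 1 library (-0.841 to -0.724 and -0.739 to -0.619; over all 6 such fits -1.022 to -0.724 and -0.79 to -0.619). Nfe2l2 passed at -0.743 after the GC and length correction, also with the replicate block added. Bach1 was at -0.124 and -0.202 in those fits and at -0.3 without BPA replicate 3, against up to 0.609 without another library; the cause was not tested. The number of the 10 genes lower was 4 to 7 in all fits.

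Of all genes, 2166 passed in DESeq2, 2136 after the GC and length correction, 2192 with that and the replicate block, 477 at an FDR of 0.01 and 444 to 2807 without 1 library. With library size scaling 831 genes were higher and 786 lower, against 580 and 835, which moved the median of all genes to 0.21; the 10 genes kept their directions and calls. At an FDR of 0.01 the changed genes numbered 1 (NRF2 control), 6 (other targets), 1 (reductases) and 3 (thioredoxin system). Without 1 library they numbered 1 to 3, 5 to 18, 1 to 4, 2 to 9 and, for haem and iron, 3 to 8. List medians that moved by over 1.5 times included 0.272 (NRF2 control, without untreated replicate 3), -0.165 (reductases, without BPA replicate 3) and, for GC and length corrected counts, 0.112 (NRF2 control), 0.056 (reductases) and -0.131 (haem and iron).

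The labels do not say whether replicate numbers pair the samples. Deviations of same-numbered libraries from their group means correlated at -0.021, 0.061 and 0.067, and with 3 libraries per group these cannot decide it. Untreated replicates 2 and 3 correlated best with the BPA library of their own number, and untreated replicate 1 did not. With the replicate block 1706 genes passed, against 1415 without it, and 6 of the 10 were among them. Genes with under 100 reads in a library, as Nqo1 under BPA, have wide errors.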
